A study of Mus musculus with 4 samples.

Results

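The genes described here are 39 enzymes and transporters that make, modify or move the ceramides and fatty acids of the epidermis, out of 54752 genes in the deposited tables. They were chosen by gene name, from what the encoded proteins do, and with earlier results of these data known. The 39 fall into sphingoid base and ceramide synthesis (11 genes), ceramide conversion and breakdown (6 genes), acylceramide synthesis with lipid oxidation and lipid transport (9 genes), fatty acid elongation (6 genes), and fatty acid synthesis and desaturation (7 genes). All 39 were found in the tables and all 39 were among the 13609 protein-coding genes tested. Total RNA was sequenced from the epidermis of 4 C57BL/6 pups on the day of birth, postnatal day 0. A pair of pups was Skiv2l fl/fl K14-Cre (called knockout below) and a pair was Skiv2l ctl (called control), littermates that the study's methods describe as Skiv2l fl/fl, Skiv2l fl/+ or Skiv2l fl/+ K14-Cre. Skiv2l encodes the helicase that feeds RNA to the cytoplasmic RNA exosome, an RNA-degrading complex. Cre under the keratin 14 promoter deletes the floxed gene in basal keratinocytes and their progeny, and leaves it in the other cells of the tissue. The labels do not say which of these genotypes each control pup had, so Cre and deletion cannot be told apart in this design if neither control carried Cre.

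The outermost layer of the skin holds water in the body through stacked sheets of ceramides, cholesterol and free fatty acids. Keratinocytes start a ceramide by joining serine to a fatty acid, attach a second fatty acid, desaturate or hydroxylate the sphingoid base, and, in the upper layers, link very long chains to linoleic acid to form acylceramides that anchor the lipid sheets to the cornified cell envelope. Very long chains come from elongases that lengthen fatty acids stepwise, and inherited defects in several of these genes cause ichthyosis, a scaling disorder of the skin.

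The authors deposited FPKM values, in which the fragment number of a gene is divided by transcript length and by the fragments of the library, so levels of different genes can be set beside each other on this scale. Differences between genotypes were taken on the log2(FPKM + 1) scale, knockout minus control, a scale on which weakly expressed genes move less than their FPKM ratio. They were tested with limma over all 13609 genes at once, and a gene was called higher or lower where the adjusted p was under 0.05. Skiv2l itself read 19.3 and 19.1 FPKM in the controls and 10.8 and 8.56 FPKM in the knockouts, a difference of -0.92 (SE 0.12, limma adjusted p = 0.00368). Without the first and without the second control pup its limma adjusted p was 0.0562 and 0.0547, and with no filter on low values 0.0706. The libraries differed little in depth: the commonest ratio of coverage to FPKM, which grows with the aligned bases of a library, lay between 5.843 and 6.274, and 16138 to 17761 genes were above 0.5 FPKM. Keratinocyte markers dominated all 4 libraries, with Krt1 between 8246 and 13160 FPKM, whereas endothelial and skeletal muscle markers summed to at most 0.7502 and 0.8604 FPKM per library, respectively. Genes lower in the knockouts outnumbered genes higher, and the median difference over all tested genes was -0.20. After scaling that set the medians of the libraries equal it was -0.03, and after quantile normalization -0.05. In bulk tissue, fewer cells of a type and less RNA per cell cannot be told apart.

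As a group, the 39 lipid genes were spread to both sides of no change, and their median difference was 0.09. It was 0.30 with median scaling and 0.17 with quantile normalization. In the knockouts 13 of them were called higher and 4 lower, and 22 were not called. Over all tested genes, 8.99% were called higher and 25.4% lower. Median scaling of the libraries gave 18 lipid genes higher and 3 lower, where all tested genes gave 13.9% and 11.9%. With quantile normalization they gave 14 higher and 3 lower, where all tested genes gave 12.4% and 14.1%. On plain FPKM, both knockouts lay above both controls for 18 of the lipid genes, and below both controls for 14, and the genotypes overlapped for 7. Among all tested genes, both knockouts lay above both controls for 18.2% and below for 55.3%. The number of calls changed with the pups used. Leaving out either control pup gave fewer calls in each direction, for the lipid genes and also over all tested genes. Leaving out either knockout pup changed the number of higher calls less in both sets. Without the first knockout pup more lipid genes were called lower. Without the first knockout pup Abca12, Elovl4 and Fa2h lost their calls, and without the second Abhd5 and Elovl4 did. Without either control pup the calls of the main comparison that remained were those of Degs1, Degs2 and Elovl6, with Sgms2 added when the second was left out. With no filter on low values, 2 lipid genes were higher and 3 lower, where 475 and 927 of 21921 protein-coding genes were. Across 14 ways of fitting the data, Degs1, Degs2 and Elovl6 were called in every one, and 12 genes were called in none.

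**Figure D1:**
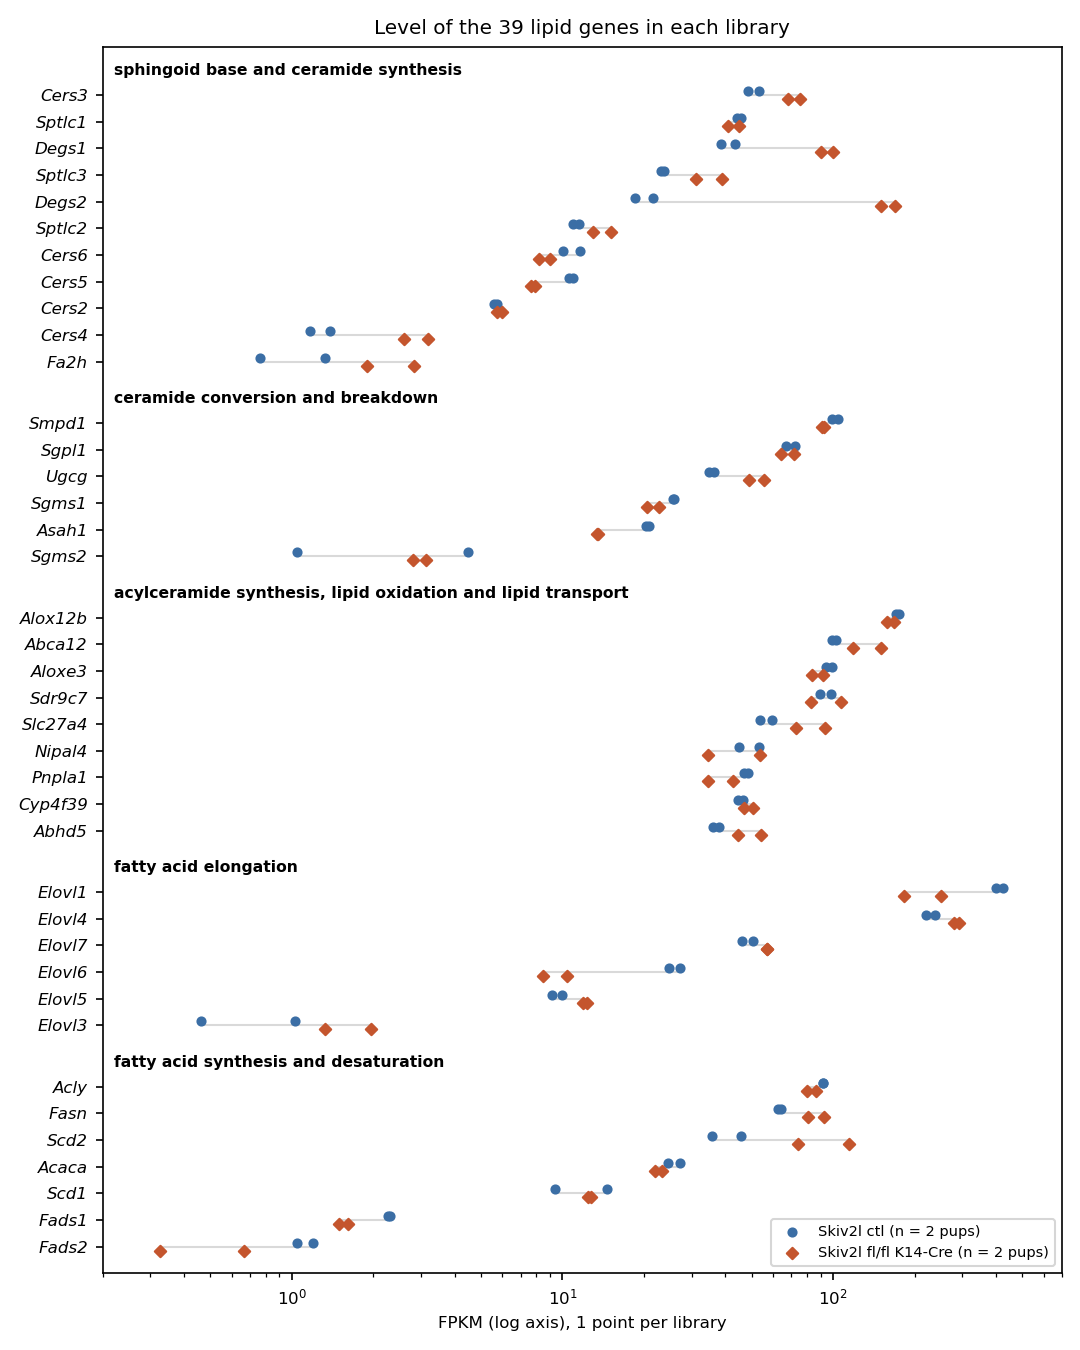
Level of each lipid gene in FPKM on a log axis, 1 point per library, with Skiv2l ctl pups as circles and Skiv2l fl/fl K14-Cre pups as diamonds (2 pups per genotype), and gray lines joining the lowest and highest library. Degs2 shows the widest separation of the genotypes, from 18.6 and 21.6 FPKM to 168.6 and 149.6 FPKM, whereas the Sgms2 levels of the control pups lie on either side of the knockouts.

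Sphingoid base and ceramide synthesis held the gene with the largest change, Degs2. Of its 11 genes, 6 were called higher and 1 lower, beside 8.99% and 25.4% of all tested genes. The median difference of the 11 was 0.49. The sphingolipid desaturases led the group. Degs2 (chr12:108678711-108702315, GRCm38, minus strand) encodes the enzyme that hydroxylates the sphingoid base and so gives phytoceramides, which are plentiful in skin. It read 18.6 and 21.6 FPKM in the controls and 168.6 and 149.6 FPKM in the knockouts, so that the lower knockout stood far above the higher control. The difference was 2.93 (SE 0.11, limma adjusted p = 5.1e-05), and the mean FPKM was 7.93 times the control mean. Degs1 (chr1:182275772-182282804, minus strand), which puts the double bond into most ceramides, read 38.4 and 43.3 FPKM in the controls and 90.2 and 99.8 FPKM in the knockouts. Both knockouts were again above both controls, by 1.20 (SE 0.10, limma adjusted p = 0.000771). Of the exonic bases of Degs2, 10.8% overlap Evl on the opposite strand, and the strandedness of the counting is not stated. Evl read 27.0 and 27.8 FPKM in the controls and 22.4 and 20.9 FPKM in the knockouts, where Degs2 was higher.

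The desaturase pair summed to 57.0 and 64.9 FPKM per control pup and to 258.8 and 249.4 FPKM per knockout pup. Degs2 made up 32.9% ± 0.490 (SD, n = 2) of that sum in the controls and 62.6% ± 3.65 (SD, n = 2) in the knockouts. Degs1 was thus the more abundant transcript in both controls and Degs2 in both knockouts. Such shares are ratios within a library, so they do not depend on scaling between libraries. With 2 pups against 2, an exact permutation test of a single value cannot go below p = 0.33 (two-sided), and no share was tested.

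The promoters of these desaturases, the pair with the largest rises in ceramide synthesis, are printed from RefSeq (GRCm38.p6), each as the 300 bases that run from 250 bases before the annotated start to 50 bases from it, 5′ to 3′ on the gene's strand. Capitals mark matches on either strand to the motifs searched: the GC box GGGCGG, the CCAAT box CCAAT, the E-box CACGTG, the AP-1 site TGANTCA, the TATA box TATAAA and the sterol regulatory element TCACNCCAC. The Degs2 window (chr12:108702257-108702556, minus strand) held 5 GC boxes, all on the opposite strand and so printed as their reverse complement, CCGCCC. The Degs1 window (chr1:182282146-182282445, minus strand) held 1 E-box. It lies wholly within the Degs1 coordinates given above, downstream of the 5′ end of the gene there.
Degs2: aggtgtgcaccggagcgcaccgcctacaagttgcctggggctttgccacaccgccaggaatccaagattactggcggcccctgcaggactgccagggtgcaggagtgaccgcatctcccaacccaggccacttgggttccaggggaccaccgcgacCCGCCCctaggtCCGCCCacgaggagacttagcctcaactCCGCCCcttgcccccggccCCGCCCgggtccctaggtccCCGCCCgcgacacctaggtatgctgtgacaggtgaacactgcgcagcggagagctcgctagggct
Degs1: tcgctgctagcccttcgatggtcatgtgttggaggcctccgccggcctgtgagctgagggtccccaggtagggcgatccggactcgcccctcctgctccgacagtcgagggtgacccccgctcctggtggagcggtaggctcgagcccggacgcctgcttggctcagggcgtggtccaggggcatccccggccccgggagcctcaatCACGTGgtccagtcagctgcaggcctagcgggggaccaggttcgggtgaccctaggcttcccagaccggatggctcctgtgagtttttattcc

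The printed windows of Degs2 and Degs1 differ in the motifs they hold. The GC boxes of Degs2 lie between 94 and 15 bases before the start, and the E-box of Degs1 lies 43 bases before it. Promoter windows were found for 32 of the 39 lipid genes, 42 windows in all, since some genes have several starts. A GC box was in 57.1% of these windows and in 35.7% of all 32851 windows in the table. An E-box was in 14.3% and 7.15%, a CCAAT box in 35.7% and 37.4%, an AP-1 site in 7.14% and 7.81%, and a TATA box in 4.76% and 13.6%, respectively. The sterol regulatory element as spelled above was in no window of the lipid genes and in 1.24% of all windows. These are matches to letters and were not tested.

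Serine palmitoyltransferase, which makes the first sphingoid base, pairs the SPTLC1 subunit with SPTLC2 or SPTLC3. Sptlc3 read 23.1 and 23.8 FPKM in the controls and 31.1 and 38.9 FPKM in the knockouts, higher in both knockouts by 0.55 (SE 0.12, limma adjusted p = 0.0181). Sptlc2 also had both knockouts above both controls, at 11.5 and 10.9 FPKM against 15.1 and 12.9 FPKM, but was not called (0.29, 95% interval 0.03 to 0.56, limma adjusted p = 0.0838), although either scaling of the libraries, by median or by quantiles, brought it past the threshold. The shared subunit did not separate by genotype: Sptlc1 read 45.7 and 44.3 FPKM in the controls and 45.02 and 41.0 FPKM in the knockouts, an interval from -0.28 to 0.15. The share of Sptlc1 in the 3 genes was 56.5% ± 0.587 (SD, n = 2) in the controls and 46.8% ± 3.70 (SD, n = 2) in the knockouts, and that of Sptlc3 was 29.4% ± 0.960 and 38.0% ± 5.55.

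The ceramide synthases, which attach the second fatty acid and differ in the chain length they prefer, did not move together. Cers3, which uses the ultra-long chains of skin ceramides, was the most abundant of the 5, at 48.5 and 53.2 FPKM in the controls. In the knockouts it read 75.1 and 68.1 FPKM, higher in both, by 0.49 (SE 0.09, limma adjusted p = 0.0120). Cers4 was low in all libraries, at 1.17 and 1.39 FPKM in the controls and 3.17 and 2.61 FPKM in the knockouts, and was also called higher (0.77, SE 0.14, limma adjusted p = 0.0103). Cers5, which makes long-chain ceramides, went the other way, from 10.5 and 10.9 FPKM to 7.90 and 7.63 FPKM. It was called lower, by -0.42 (SE 0.10, limma adjusted p = 0.0200), but not with median scaling (limma adjusted p = 0.126) or quantile normalization (0.101). Cers6 had both knockouts below both controls (10.04 and 11.6 FPKM, then 8.16 and 9.02 FPKM) and was not called (-0.30, 95% interval -0.58 to -0.02). Cers2, which serves very long chains in many tissues, overlapped between genotypes at 5.58 to 5.98 FPKM (95% interval -0.21 to 0.29). As a share of the family, Cers3 went from 64.1% ± 0.161 (SD, n = 2) to 74.0% ± 1.22, and Cers5 from 13.5% ± 0.521 to 8.04% ± 0.232. Fa2h, whose product hydroxylates the fatty acid of ceramides, was near the lower end of the scale, at 0.766 and 1.33 FPKM in the controls and 2.82 and 1.89 FPKM in the knockouts, and passed the threshold (0.71, SE 0.20, limma adjusted p = 0.0408). Sebocyte markers, from a cell type that also expresses Fa2h, summed to 6.50 and 9.38 FPKM in the controls and 9.27 and 8.74 FPKM in the knockouts, which overlap, with 1 of 4 tested called higher and Mogat2 and Mc5r at most 0.0656 and 0.3414 FPKM. Their part in the result was not tested.

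**Figure D2:**
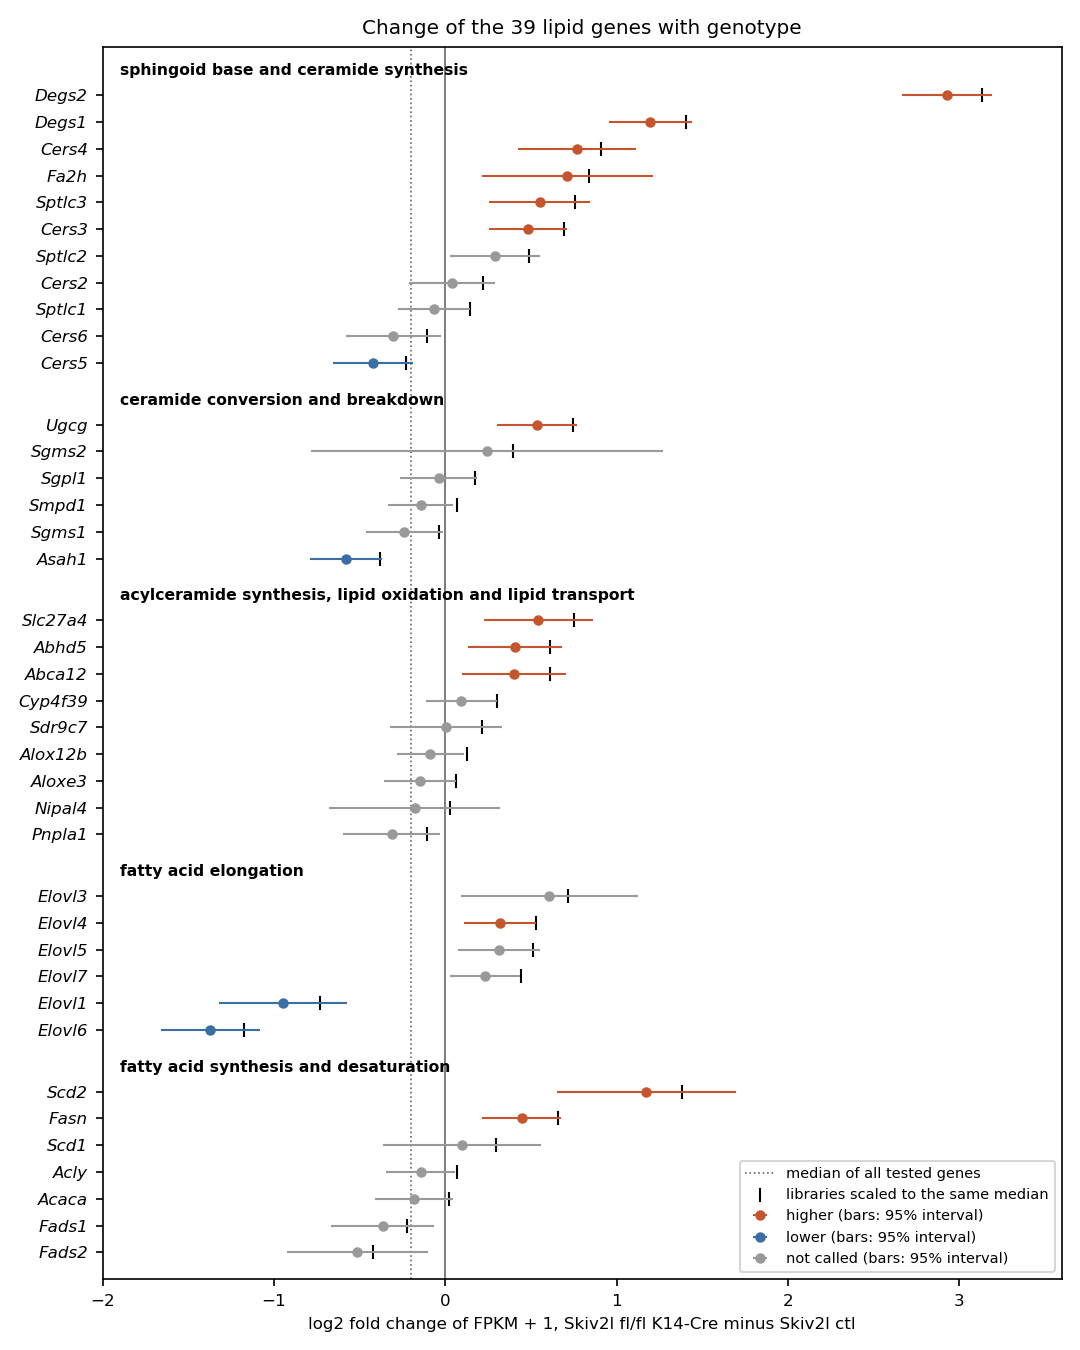
Difference of each lipid gene on the log2(FPKM + 1) scale, Skiv2l fl/fl K14-Cre minus Skiv2l ctl, with 95% intervals that are not adjusted for the number of genes, colored by call, and short black ticks for the same difference after median scaling of the libraries. The dotted line is the median of all tested genes (-0.20), and 30 of the 39 genes lie above it and 9 below.

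Ceramide conversion and breakdown changed less: of 6 genes, 1 was called higher and 1 lower, beside 8.99% and 25.4% of all tested genes. The median of the 6 was -0.09, and it turned to 0.12 with median scaling. Ugcg, which adds glucose to ceramide so that it can be carried to the lamellar granules, read 34.9 and 36.3 FPKM in the controls and 55.6 and 48.7 FPKM in the knockouts. It was higher in both knockouts by 0.54 (SE 0.10, limma adjusted p = 0.00932). Asah1, the lysosomal ceramidase that splits ceramide into a sphingoid base and a fatty acid, fell from 20.4 and 20.9 FPKM to 13.5 and 13.4 FPKM. Its libraries were tight within each genotype, and the difference was -0.58 (SE 0.09, limma adjusted p = 0.00490). Smpd1, the acid sphingomyelinase that releases ceramide in the cornified layer, read 104 and 98.9 FPKM, then 92.8 and 91.1 FPKM, and was not called (95% interval -0.34 to 0.05). Sgms1, which turns ceramide into sphingomyelin, had both knockouts below both controls (25.6 and 25.8 FPKM, then 22.8 and 20.5 FPKM) and missed the threshold (-0.24, limma adjusted p = 0.0899). Its paralog Sgms2 split the control pups, at 1.05 and 4.46 FPKM, with the knockouts between them at 3.12 and 2.81 FPKM (95% interval -0.78 to 1.27). The share of Sgms2 was accordingly 3.93% and 14.8% in the controls and 12.1% in each knockout, and the sign of its change depended on which control was used. Sgpl1, the lyase that ends sphingoid base breakdown, overlapped between genotypes at 64.2 to 72.5 FPKM (95% interval -0.27 to 0.19).

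Acylceramide synthesis, lipid oxidation and lipid transport contained well-known ichthyosis genes, most of them abundant. Of the 9 genes 3 were called higher and none lower (6 were not called), beside 8.99% and 25.4% of all tested genes. The median of the 9 was 0.01. Slc27a4, a fatty acid transporter and acyl-CoA synthetase, read 53.7 and 59.2 FPKM in the controls and 93.4 and 73.1 FPKM in the knockouts (0.54, SE 0.13, limma adjusted p = 0.0242). Abhd5, the cofactor of the acylceramide-forming transacylase, read 35.9 and 37.8 FPKM, then 44.6 and 54.1 FPKM (0.41, SE 0.11, limma adjusted p = 0.0365). Of its exonic bases 16.0% overlap the opposite-strand gene A730085K08Rik, which was at most 2.85 FPKM. Abca12, the lamellar granule lipid transporter, read 102 and 99.2 FPKM in the controls and 150.4 and 118 FPKM in the knockouts. Its call lay at the threshold (0.40, SE 0.12, limma adjusted p = 0.04996), was made in 6 of the 14 fits, and was lost with quantile normalization and with TPM. The first knockout was higher than the second for Slc27a4 and Abca12 but lower for Abhd5.

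The epidermal lipoxygenases Alox12b and Aloxe3, which oxidize the linoleic acid of acylceramides in succession, were not called. Their genes lie in tandem on chromosome 11, 7874 bases apart on the same strand. Alox12b was the most abundant of the 9 at 171 and 175 FPKM in the controls and 168 and 158 FPKM in the knockouts, with a 95% interval of the difference from -0.28 to 0.11. Aloxe3 read 98.98 and 94.39 FPKM, then 83.2 and 91.5 FPKM, with an interval from -0.36 to 0.07. Pnpla1, the transacylase that joins linoleic acid to the very long chain, read 48.6 and 47.0 FPKM in the controls and 42.6 and 34.4 FPKM in the knockouts, below both controls in both, and was not called (-0.31, 95% interval -0.59 to -0.03, limma adjusted p = 0.0823). Its cofactor Abhd5 was thus called higher while Pnpla1 was not called. Cyp4f39, which hydroxylates the end of the very long chain before linoleic acid is attached, stayed between 44.7 and 50.7 FPKM in all libraries (95% interval -0.11 to 0.30) and was called higher only with median scaling, where its difference was 0.30 (limma adjusted p = 0.0380). Sdr9c7, which acts after the lipoxygenases, and Nipal4 had knockouts that differed from each other more than the controls did. Sdr9c7 read 107 and 82.6 FPKM in the knockouts, around the control levels of 89.5 and 98.1 FPKM, and Nipal4 read 53.6 and 34.4 FPKM, against 44.9 and 53.1 FPKM in the controls. Most of these genes are expressed in the granular layer. Of the 7 granular keratinocyte markers, Lor, Flg2 and Casp14 were called lower and Tgm3 higher, and Flg, Ivl and Hrnr were not called. The summed FPKM of the 7 was 7039 and 6422 for the control pups against 5718 and 5079 for the knockout pups. Flg, the largest part, gave 4087 and 3658 FPKM of the control sums and 3460 and 3053 FPKM of the knockout sums. Summed basal markers read 4729 and 4891 FPKM in the controls and 9798 and 9795 FPKM in the knockouts. Of these sums Krt14 alone gave 1736 and 1812 FPKM in the controls and 7381 and 7312 FPKM in the knockouts. The median difference of the 7 basal markers was -0.08, and 5 of them had a difference below 0. Of the 7 basal markers, Krt14 and Itgb4 were called higher and Krt15 lower. Summed spinous markers read 24360 and 25900 FPKM, then 16980 and 20540 FPKM, with Krt1 called lower, Dsc1 higher and 4 of the 6 not called. The part of the layer markers in the lipid gene results was not tested.

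**Figure D3:**
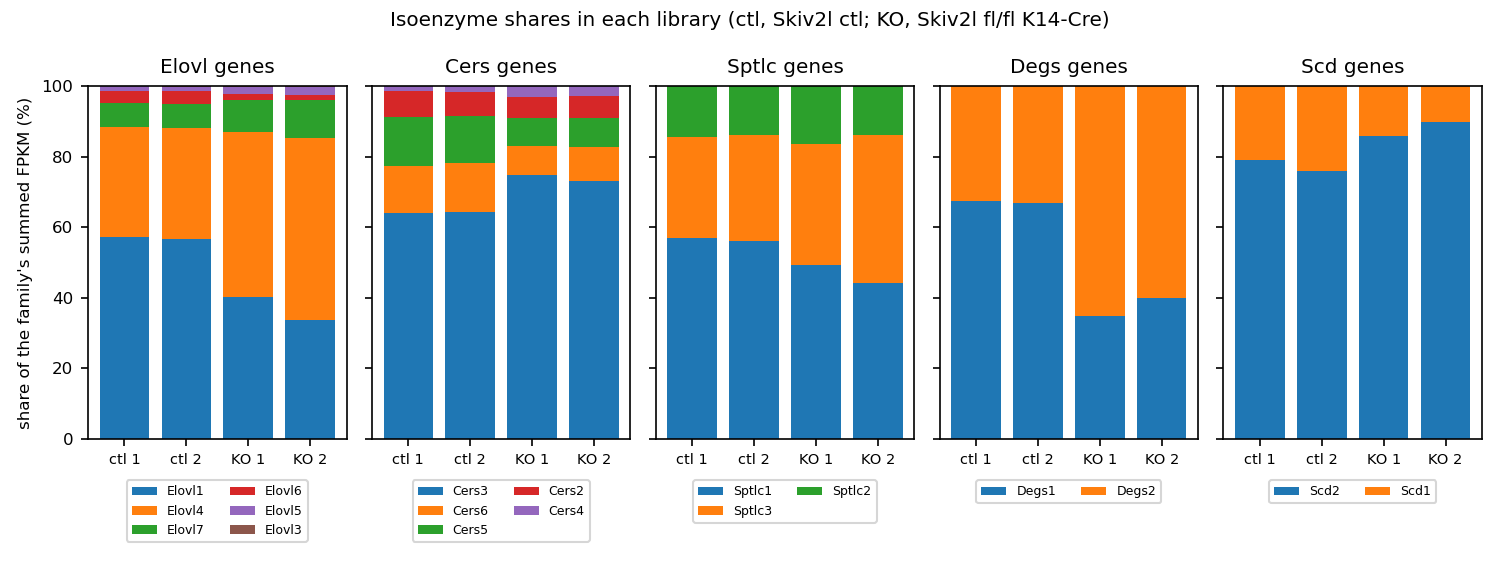
Share of each gene in the summed FPKM of its family, in percent, 1 bar per library (ctl, Skiv2l ctl; KO, Skiv2l fl/fl K14-Cre), for the Elovl, Cers, Sptlc, Degs and Scd genes. Elovl1 is the largest part of the Elovl bars in both controls and Elovl4 in both knockouts, and Degs2 overtakes Degs1 in both knockouts.

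Fatty acid elongation showed opposite changes within a single enzyme family. Elovl1, which lengthens saturated chains to the very long range, was the most abundant of all 39 lipid genes in the controls. Located at chr4:118428093-118432953 (GRCm38, plus strand), it fell from 400.2 and 425 FPKM to 250.6 and 182.5 FPKM, by -0.94 (SE 0.15, limma adjusted p = 0.00678). Elovl4, which carries chains on to the ultra-long lengths of acylceramides, read 219 and 238 FPKM in the controls and 291 and 279 FPKM in the knockouts. It was called higher (0.32, SE 0.09, limma adjusted p = 0.0343), but in 6 of the 14 fits only. The call was lost with quantile normalization, where its difference was 0.17 (limma adjusted p = 0.126), with no filter, without a trend, with all gene types and without any 1 of the 4 libraries. Elovl1 made up 56.9% ± 0.437 (SD, n = 2) of the summed Elovl FPKM in the controls and 37.0% ± 4.58 in the knockouts, whereas Elovl4 made up 31.5% ± 0.247 and 49.2% ± 3.43. The order of the leading elongases was therefore opposite in both knockouts to that in both controls.

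Elovl6 (chr3:129532355-129638495, plus strand), which takes palmitate to stearate at the start of elongation, had the largest fall of the 39 genes. It read 24.7 and 27.1 FPKM in the controls and 10.4 and 8.50 FPKM in the knockouts, a difference of -1.37 (SE 0.12, limma adjusted p = 0.000889). The other elongases all had both knockouts above both controls, without passing the threshold. Elovl7, an elongase of long saturated chains, read 46.1 and 50.4 FPKM, then 56.8 and 57.0 FPKM (0.23, 95% interval 0.03 to 0.44). Elovl5, which acts on polyunsaturated chains, read 9.12 and 9.97 FPKM, then 11.9 and 12.3 FPKM, and lay just outside the threshold (0.32, limma adjusted p = 0.0505). Elovl3, known from hair follicles and sebaceous glands, was low, at 0.463 and 1.03 FPKM in the controls and 1.96 and 1.32 FPKM in the knockouts (0.61, limma adjusted p = 0.0703). With median scaling these 3 genes were called higher, and with quantile normalization Elovl3 and Elovl5 were.

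The promoters of Elovl6 and Elovl1, the elongase genes that fell most, are printed in the same way (RefSeq, GRCm38.p6, plus strand). The Elovl6 window (chr3:129532136-129532435) held none of the 6 motifs. The Elovl1 window (chr4:118427843-118428142), from the first of 2 starts in the table, held 5 GC boxes between 101 and 8 bases before the start, and 1 CCAAT box that overlaps the third of them.
Elovl6: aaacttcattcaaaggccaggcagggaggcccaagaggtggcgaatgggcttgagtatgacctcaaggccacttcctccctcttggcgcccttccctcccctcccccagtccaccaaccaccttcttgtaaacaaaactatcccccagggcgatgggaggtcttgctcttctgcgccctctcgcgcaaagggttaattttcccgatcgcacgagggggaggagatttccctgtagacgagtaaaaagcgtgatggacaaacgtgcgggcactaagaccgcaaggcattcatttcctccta
Elovl1: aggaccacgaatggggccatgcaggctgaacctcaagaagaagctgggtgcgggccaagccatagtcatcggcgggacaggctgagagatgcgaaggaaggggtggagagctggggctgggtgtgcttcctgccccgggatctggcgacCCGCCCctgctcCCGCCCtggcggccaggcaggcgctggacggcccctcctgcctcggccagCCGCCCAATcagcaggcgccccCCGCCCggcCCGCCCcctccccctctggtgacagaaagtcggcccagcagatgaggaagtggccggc

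The printed windows of Elovl1 and Degs2 hold the same number of GC boxes, and no link between motifs and changes was tested. Of the exonic bases of Elovl1, 1.94% overlap Cdc20 on the opposite strand, which read 23.6 and 19.1 FPKM in the controls and 21.7 and 16.8 FPKM in the knockouts. For Elovl6, 2.05% of the 75-base stretches of its transcripts also occur in other genes.

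Fatty acid synthesis and desaturation held 2 genes called higher and none lower of 7 (5 not called), beside 8.99% and 25.4% of all tested genes. The median of the 7 was -0.14, and it turned to 0.07 with median scaling. Scd2 (chr19:44293676-44306864, plus strand), a stearoyl-CoA desaturase known for its role in newborn skin, read 35.5 and 45.6 FPKM in the controls and 74.4 and 114 FPKM in the knockouts. Both knockouts were above both controls but far apart, and the difference was 1.17 (SE 0.22, limma adjusted p = 0.0102). The neighboring Scd1, the main stearoyl-CoA desaturase of the adult sebaceous gland, lies 87587 bases away. It read 9.375 and 14.5 FPKM in the controls, with the knockouts between them at 12.4 and 12.8 FPKM (95% interval -0.36 to 0.56). Scd2 made up 77.5% ± 2.35 (SD, n = 2) of the pair in the controls and 87.8% ± 2.99 in the knockouts. Of the 75-base stretches of the transcripts, 1.78% for Scd2 and 3.15% for Scd1 occur also in other genes, mainly the other Scd genes, so reads there could have been split. Fasn, the fatty acid synthase, read 62.5 and 63.9 FPKM in the controls and 92.8 and 80.7 FPKM in the knockouts, higher in both by 0.45 (SE 0.10, limma adjusted p = 0.0163).

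The enzymes just before Fasn were not called. Acly, which supplies acetyl-CoA from citrate, read 91.8 and 91.9 FPKM in the controls and 79.7 and 86.7 FPKM in the knockouts (95% interval -0.34 to 0.06). Acaca, which carboxylates acetyl-CoA to malonyl-CoA, read 24.5 and 27.2 FPKM, then 23.3 and 22.0 FPKM (95% interval -0.41 to 0.05). Its level is uncertain, since 26.8% of its 75-base stretches occur also in other genes, among them Gm5182 and Gm10687. The fatty acid desaturases Fads1 and Fads2, which make polyunsaturated fatty acids and lie 81385 bases apart on chromosome 19, were low. Fads1 read 2.26 and 2.31 FPKM in the controls and 1.612 and 1.496 FPKM in the knockouts (-0.36, limma adjusted p = 0.0654), and Fads2 read 1.04 and 1.20 FPKM, then 0.667 and 0.325 FPKM (-0.51, limma adjusted p = 0.0594). For both, the knockouts lay below the controls without passing the threshold. Adipocytes also express Fasn and the Scd genes. Among the 6 adipocyte markers, Adipoq was listed at 0 in all libraries, Plin1 was at most 0.0351 FPKM and Lep at most 0.00949 FPKM, whereas Fabp4 read 1.78 and 1.46 FPKM in the controls and 55.8 and 57.8 FPKM in the knockouts. Fibroblast markers, mostly Dcn, summed to 61.3 and 69.0 FPKM in the controls and 21.9 and 25.0 FPKM in the knockouts, and leukocyte markers to 21.6 and 30.1 FPKM and then 11.2 and 10.3 FPKM. Their part in the results was not tested.

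Other genes of these pathways, 105 listed by what they encode, were read from the same fit. Of the 91 tested, 13 were called higher and 27 lower, beside 8.99% and 25.4% of all tested genes. Their median difference was -0.13, beside -0.20 for all tested genes, and it was 0.04 with median scaling and -0.02 with quantile normalization. Among 31 tested sphingolipid genes, 3 were called higher and 10 lower. Median scaling gave 5 and 6, where all tested genes gave 13.9% and 11.9%. Sgpp2, a phosphatase that returns sphingosine 1-phosphate to sphingosine, rose from 1.19 and 1.40 FPKM to 16.2 and 11.3 FPKM (2.67, SE 0.18, limma adjusted p = 0.000376). Samd8, a sphingomyelin synthase relative, rose by 0.34, a call that leaving out any 1 library ended (limma adjusted p from 0.0541 to 0.172). The largest falls were in Sphk2, which phosphorylates sphingosine (-0.95), in Arsa, a lysosomal sulfatase (-0.92), and in Acer2, a Golgi ceramidase (-0.83).

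Among 18 tested barrier lipid genes, 3 were called higher and 5 lower. In the main comparison all tested genes gave 8.99% and 25.4%. The balance changed to 5 and 2 with median scaling, where all tested genes gave 13.9% and 11.9%. With quantile normalization it was 5 and 5, beside 12.4% and 14.1% of all tested genes. Alox8, a lipoxygenase, rose from 0.142 and 0.348 FPKM to 4.92 and 11.4 FPKM (2.79, SE 0.33, limma adjusted p = 0.00249), whereas Alox12e, another epidermal lipoxygenase, fell from 12.9 and 13.1 FPKM to 3.45 and 3.92 FPKM (-1.58, SE 0.11, limma adjusted p = 0.000395). Lipoxygenase genes thus included members called in each direction, beside Alox12b and Aloxe3, which were not called. The sterol transporters Abcg1 and Abca1 were both called higher. Abcg1 read 4.28 and 4.20 FPKM, then 23.5 and 26.2 FPKM (2.30, limma adjusted p = 9.9e-05). Abca1 differed by 1.10 and was called in 11 of the 14 fits. Its call was lost with no filter on low values and when either control pup was left out. Pla2g2f, a secreted phospholipase, fell by 0.61 on the log2 scale, and Lipm, an epidermal lipase, fell by 0.47, a call that median scaling ended (limma adjusted p = 0.0573).

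Among 27 tested fatty acid genes, 4 were called higher and 8 lower, beside 8.99% and 25.4% of all tested genes. Median scaling gave 5 and 7, where all tested genes gave 13.9% and 11.9%. Quantile normalization gave 5 and 8, where all tested genes gave 12.4% and 14.1%. Fads3, a relative of Fads1 and Fads2, rose from 0.679 and 0.787 FPKM to 8.58 and 4.73 FPKM (2.10, SE 0.24, limma adjusted p = 0.00226), so that in both knockouts it stood above its relatives. Acss2, which makes acetyl-CoA from acetate, rose by 0.76 and Scd3 by 0.52. Scd3 was called in 8 of the 14 fits, and leaving out any 1 library ended its call (limma adjusted p from 0.0699 to 0.1435). The largest falls were in genes that activate or bind fatty acids: Slc27a3 by -1.22, Acsl4 by -1.12 and Dbi, the acyl-CoA binding protein, by -1.04. Slc27a3 and Slc27a4, of the same transporter family, were thus called in opposite directions.

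Among 15 tested regulators of lipid genes, 3 were called higher and 4 lower, beside 8.99% and 25.4% of all tested genes. Median scaling gave 5 higher and 2 lower, where all tested genes gave 13.9% and 11.9%. Leaving out either control pup gave fewer calls, as it did over all tested genes. Srebf1, the main activator of fatty acid synthesis genes, read 30.2 and 31.1 FPKM in the controls and 32.9 and 34.6 FPKM in the knockouts and was not called (0.14, 95% interval -0.06 to 0.34). Srebf2, which favors cholesterol genes, overlapped between genotypes at 68.3 to 81.6 FPKM, and Insig1, their feedback inhibitor and target, read 5.35 and 16.9 FPKM in the controls with the knockouts between them at 13.98 and 13.17 FPKM. With median scaling Srebf1 was called higher (0.34, limma adjusted p = 0.0303). Scap, which escorts the SREBP proteins out of the endoplasmic reticulum, was called higher (0.46), while Insig2 (-0.64) and Mbtps1, the protease that cleaves the SREBP proteins (-0.58), were called lower. Mid1ip1, an activator of acetyl-CoA carboxylase, rose by 0.90, Ppard, a fatty acid-sensing nuclear receptor of keratinocytes, by 0.61, and its partner Rxra was called lower (-0.43), though not with median scaling (limma adjusted p = 0.0811). Abcg1, Alox12e, Dbi, Sgpp2 and Slc27a3 were called in all 14 fits.

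**Figure D4:**
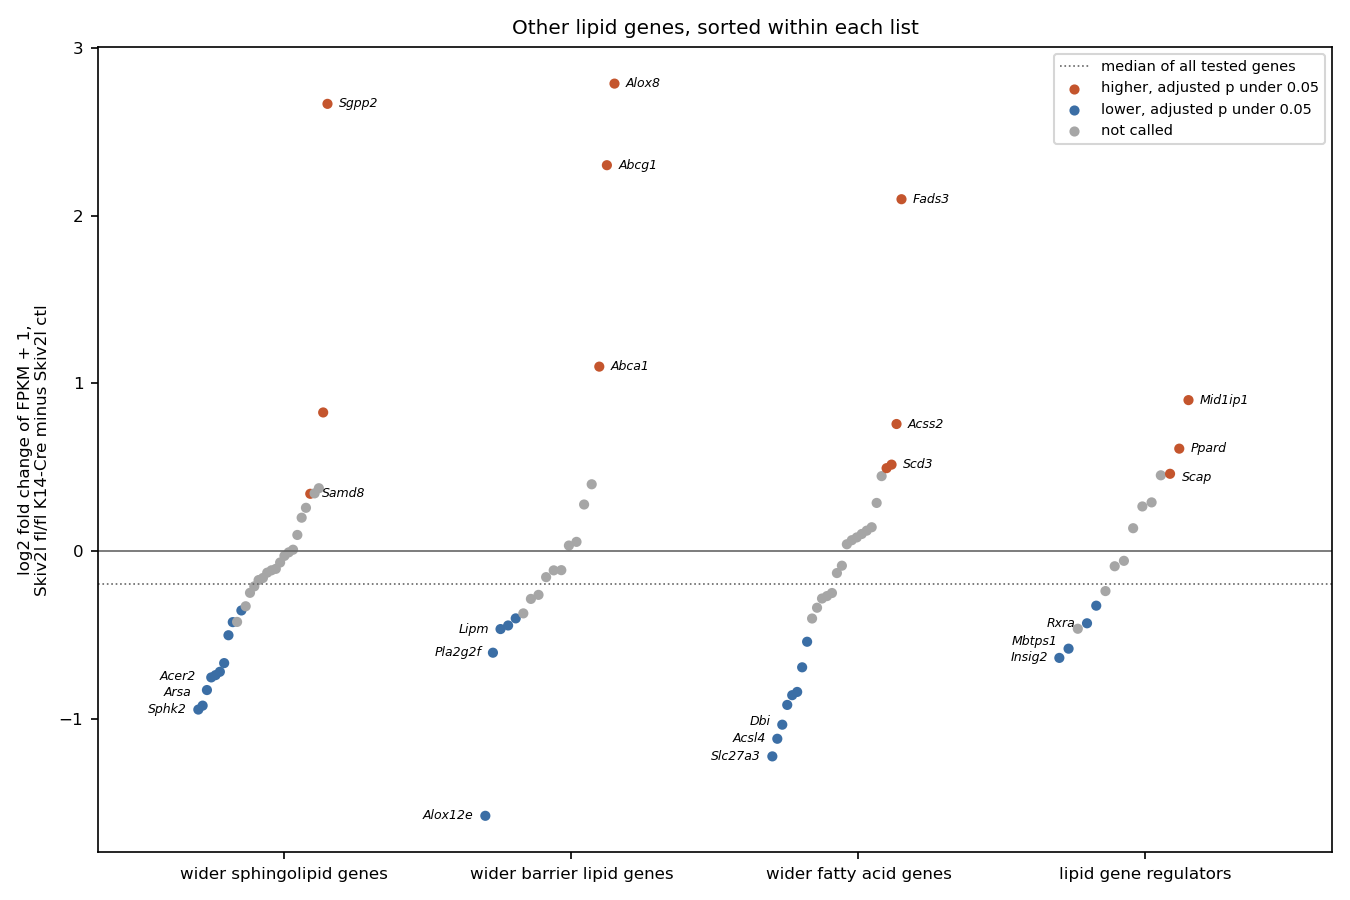
Difference on the log2(FPKM + 1) scale, Skiv2l fl/fl K14-Cre minus Skiv2l ctl, of the tested genes in 4 lists of other lipid genes, 1 point per gene sorted within its list and colored by call. Sgpp2, Alox8, Abcg1 and Fads3 stand above 2, and Alox12e lies lowest at -1.58.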

How the data were processed

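Total RNA of 4 epidermis samples, 1 pup each, was compared between Skiv2l ctl (2 pups) and Skiv2l fl/fl K14-Cre (2 pups), grouped by the genotype in the labels. The authors ran an RNA-seq workflow of their institution and deposited 1 table per library on GRCm38. The deposited FPKM is scaled for length and library size, the deposited TPM has the same sum in every library, and the deposited coverage is a mean read depth. The aligner, its version and the strandedness are not given in the sources used here. FPKM values of repeated identifiers were summed. Protein-coding genes were taken from GENCODE M21, in which 54723 of 54752 identifiers were found, and a gene was tested if any library had an FPKM over 0.5. All 37 mitochondrial genes were listed at 0 in every library.

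Values of log2(FPKM + 1) were fitted with limma 3.58.1 in R 4.3.3 (lmFit, then eBayes with a trend), p-values were two-sided and were adjusted over the 13609 genes by Benjamini-Hochberg, and the script was tested on simulated data. The members and lists were chosen with earlier results of these data known. Genes named are the 39 lipid genes, Skiv2l, Srebf1, Srebf2, Insig1 and, of each other list, the 3 called genes of largest rise and fall, with markers where a list is summarized. A gene that the rule names is not reported here. Pups are different animals, and same-numbered pups did not deviate together (correlation -0.077), so the replicate numbers do not pair them. No interval was computed from counts, and the number of pups limits precision. Alternatives were a pseudocount of 0.1, other filters, TPM, median scaling, quantile normalization, a replicate block, no trend, all gene types, an adjusted p under 0.01, and leaving out each library. Sequences are from RefSeq.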

Additional observations from a re-analysis of the deposited data

How the results depend on the processing

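Leaving out 1 library at a time gave 2 to 12 lipid genes called higher and 1 to 7 lower, 497 to 1146 of all tested genes higher and 805 to 3135 lower, and, higher and lower in turn, 2 to 3 and 2 to 8 other sphingolipid genes, 2 to 4 and 1 to 6 other barrier lipid genes, 1 to 3 and 6 to 9 other fatty acid genes, and 1 to 3 and 0 to 4 regulators. The lone library of a genotype was assumed to vary like the others. With no filter on low values 2 lipid genes were called higher, and all tested genes gave 475 higher and 927 lower, other sphingolipid genes 3 lower, other barrier lipid genes 2 lower, other fatty acid genes 0 higher and 5 lower, and regulators 0 higher. With median scaling all tested genes gave 1894 higher and 1623 lower, other sphingolipid genes 5 and 6, other barrier lipid genes 5 and 2, and regulators 5 and 2. With quantile normalization 1917 of all tested genes were lower and 5 other barrier lipid genes higher. With all gene types tested, 2 other fatty acid genes were called higher. At an adjusted p under 0.01, 3 lipid genes were higher and 3 lower, and 669 of all tested genes were higher and 1279 lower. The cause was not tested. With the replicate block, whose numbers the labels do not give as pairs, 13 lipid genes were called higher and 4 lower. All tested genes then gave 1264 and 3393. Of the 39 lipid genes, 28 had the same direction across all 14 fits, and the 11 that did not were not called with all 4 libraries and the settings of the report. Of these, Sgms2 was called without the second control pup and Nipal4 without the first knockout pup. With median scaling the log2 difference turned positive for Sptlc1 (0.1434), Smpd1 (0.0672), Sgpl1 (0.1715), Alox12b (0.1254), Aloxe3 (0.0644), Nipal4 (0.0298), Acly (0.0686), Acaca (0.0218) and the regulator Srebf2 (0.1516). With quantile normalization it was 0.0081 for Sptlc1 and -0.0327 for Sdr9c7, which was -0.0429 with TPM. Leaving out 1 library gave -0.1314 to 0.0013 for Sptlc1, -0.4629 to 0.9526 for Sgms2, -0.1166 to 0.0393 for Sgpl1, -0.491 to 0.1336 for Nipal4, -0.1797 to 0.1896 for Sdr9c7, -0.1937 to 0.3901 for Scd1, -0.1857 to 0.0684 for Srebf2 and -0.2954 to 1.1981 for Insig1. The change in the share of Fads1 ran from 3.586 to 15.02 percentage points when 1 library was left out, and that of Sgms1 from -8.12 to 2.711. With 2 pups per genotype, a gene that was not called may still differ by an amount within its interval.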

Other observations

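The control pups differed from each other in several lipid genes. The first control pup read lower than the second for Sgms2 (1.05 and 4.46 FPKM), Insig1 (5.35 and 16.9 FPKM), Scd1 (9.375 and 14.5 FPKM), Elovl3 (0.463 and 1.03 FPKM) and Fa2h (0.766 and 1.33 FPKM), and for the leukocyte marker Lyz2 (0.988 and 5.82 FPKM). For Sgms2, Insig1, Scd1 and Lyz2 both knockouts lay between the controls. These genes were picked after their values were seen, and the difference between the control pups was not tested.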
